A study of Mus musculus with 9 samples.

Results

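Hnf4a, Foxa1, Foxa2, Foxa3, Cebpa, Nr1i2, Nr1i3, Onecut1 and Prox1 encode the transcription factors that set up and hold the hepatocyte programme. They were taken by symbol from the deposited table of normalised read counts, and all 9 of 9 were found among its 22701 genes. Each had a mean of at least 10 normalised reads over the 9 libraries, so all 9 entered the tests, which covered 13845 genes. A normalised read is a read count divided by 1 factor per library that removes differences in depth.

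The libraries were total RNA of whole livers from 5-week-old mice on a mixed C57BL/6, 129svPas background, sequenced after removal of ribosomal RNA. HP1 proteins bind methylated histone H3 at lysine 9 and pack chromatin. The 3 wild-type livers (WT) were compared with 2 livers lacking HP1α (HP1a_KO, genotype HP1a-/-), 1 lacking HP1α throughout and HP1β in the liver (HP1ab_KO, genotype HP1a-/-, HP1bliver-/-), and 3 lacking HP1α throughout and HP1γ in the liver (HP1ag_KO, genotype HP1a-/-, HP1gliver-/-). All 6 mutant livers therefore share the HP1α deletion, and no group lost HP1β or HP1γ alone. What drives the deletion in the liver, and the sex of the mice, is not given in these sources. The labels number each liver as a separate mouse, and p-values measure the spread between these samples.

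Liver identity rests on a network in which these factors bind each other's genes as well as those of secreted proteins, metabolic enzymes and transporters. HNF4A is the nuclear receptor at its centre. The FOXA forkhead proteins open liver enhancers, and C/EBPA drives metabolic genes and restrains proliferation. NR1I2 (PXR) and NR1I3 (CAR) sense drugs and bile components and induce cytochrome P450 genes. ONECUT1 (HNF6) acts in hepatocytes and bile ducts, and PROX1 is a homeodomain protein that binds HNF4A and lowers bile acid synthesis.

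Totals ran from 16266423 reads (HP1a_KO replicate 1) to 36161177 reads (HP1ab_KO). Cbx5, which encodes HP1α, read 1235 ± 279 normalised reads (SD, n = 3) in WT, 538 ± 53.3 (n = 2) in HP1a_KO, 663 in HP1ab_KO and 743 ± 75.8 (n = 3) in HP1ag_KO. Cbx1 (HP1β) read 217 in HP1ab_KO against 917 ± 146 in WT, and Cbx3 (HP1γ) read 350 ± 27.5 in HP1ag_KO against 605 ± 59.7 in WT. Each deleted gene was thus lower in the livers labelled for it, with reads remaining. Cbx1 was also lower in groups not labelled for HP1β, at 457 and 771 in HP1a_KO and 753 ± 89.7 in HP1ag_KO, against 803 to 1082 in single WT livers. Of the 10 hepatocyte markers 0 were at 0 in every library, and their summed level was 3217410 to 4006090 normalised reads in WT and 3801320 to 4214430 in the 6 mutant livers.

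Some livers stood apart within their groups, on genes named here after their values were seen. WT replicate 3 and HP1ag_KO replicates 1 and 2 read 68.4, 334 and 50.5 normalised reads of Dbp, a transcription factor gene with a strong daily rhythm, against 1961 to 3036 in the other 6 livers. The same 3 livers read 1177, 2176 and 1372 of the related Tef, against 3802 to 6324, and 2977, 2961 and 3016 of Stat5b, a mediator of growth hormone signalling, against 1507 to 2059. HP1ag_KO replicate 1 alone read 3277 of Cyp2b13, against 28.4 or less, 294 of Cux2, against 42.2 or less, and 347 of H19, against 51.9 or less. The time of day of collection is not stated in the labels. The fits were repeated without the 3 livers low in Dbp, an alternative chosen after seeing the data that leaves 2 WT livers and 1 HP1ag_KO liver. In the labels the mouse numbers of WT replicate 3 and HP1ag_KO replicate 1 are neighbours, as are those of WT replicate 2 and HP1ag_KO replicate 3. The 2 HP1a_KO livers, the whole of that group, also have neighbouring numbers. Nothing is said of litter or day, so in HP1a_KO the genotype and a shared litter or day cannot be told apart.

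The promoters of 4 members are shown because their genes carry the results that follow: Hnf4a had the smallest p of the 9 genes in any comparison, and Onecut1, Foxa1 and Foxa2 varied most between livers. Sequences are from RefSeq (GRCm38.p6), 5′ to 3′ on the gene's strand, cover up to 250 bases before a transcription start, and leave out bases in an annotated exon. Hnf4a has 2 listed starts 40298 bases apart on the plus strand, with windows at chr2:163506607-163506807 (upstream start) and chr2:163546943-163547154 (downstream start). Adult hepatocytes are known to use the downstream start, and the counts, made per gene, do not separate the starts. The Onecut1 window is chr9:74861671-74861920 on the plus strand, the Foxa1 window chr12:57546122-57546361 on the minus strand, and the Foxa2 window, at the farthest upstream of its 3 listed starts, chr2:148046970-148047219 on the minus strand. Capitals mark a match to one of the motifs searched.
Hnf4a upstream start: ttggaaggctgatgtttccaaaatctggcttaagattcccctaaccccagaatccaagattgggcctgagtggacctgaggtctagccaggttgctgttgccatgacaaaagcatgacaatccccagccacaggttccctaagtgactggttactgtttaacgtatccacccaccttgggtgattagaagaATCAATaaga
Hnf4a downstream start: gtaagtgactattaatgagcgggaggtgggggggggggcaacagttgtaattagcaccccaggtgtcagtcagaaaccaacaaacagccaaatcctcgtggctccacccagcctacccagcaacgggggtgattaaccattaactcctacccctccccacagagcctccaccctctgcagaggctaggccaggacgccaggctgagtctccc
Onecut1: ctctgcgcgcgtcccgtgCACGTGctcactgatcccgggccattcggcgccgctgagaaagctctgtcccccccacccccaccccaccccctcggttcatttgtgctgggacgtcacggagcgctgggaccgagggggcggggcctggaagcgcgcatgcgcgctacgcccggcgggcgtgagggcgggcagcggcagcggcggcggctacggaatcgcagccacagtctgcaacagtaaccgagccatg
Foxa1: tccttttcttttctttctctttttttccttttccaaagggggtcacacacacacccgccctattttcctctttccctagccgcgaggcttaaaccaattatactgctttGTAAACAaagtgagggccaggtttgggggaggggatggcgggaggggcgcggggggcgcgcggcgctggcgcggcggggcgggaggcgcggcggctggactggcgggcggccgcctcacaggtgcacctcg
Foxa2: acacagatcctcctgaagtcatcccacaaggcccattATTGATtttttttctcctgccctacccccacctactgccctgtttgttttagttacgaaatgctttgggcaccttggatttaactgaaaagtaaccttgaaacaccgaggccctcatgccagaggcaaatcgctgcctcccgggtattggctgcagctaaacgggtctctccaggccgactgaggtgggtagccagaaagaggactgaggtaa
The motifs were searched on both strands of the 250 bases before each of 32851 listed mouse starts. They were the forkhead letters TGTTTAC (in 3.17% of promoters) and TATTTAC (2.73%), the HNF4A letters CAAAGTCCA (0.384%), and the C/EBP letters TTGCGCAA (0.164%) and TTGCNNAA (9.56%), of which the first is a case of the second. The others were the onecut core ATCAAT (6.72%), the E-box CACGTG (6.02%) and the TATA box TATAAA (12.4%). The upstream Hnf4a window holds the onecut core 59 bases before the start, and the Foxa2 window holds it on the opposite strand 213 bases before the start. The Foxa1 window holds a forkhead match on the opposite strand 141 bases before the start, and the Onecut1 window an E-box 232 bases before it. Among the other members, Nr1i2 held the second set of forkhead letters on the opposite strand, Nr1i3 an E-box, and Foxa3 and Cebpa a TATA box. Prox1, at the upstream of its 2 listed starts, held the TATA letters on the opposite strand only. The same was so for Foxa2 at the farthest downstream of its 3 listed starts. A match is a description of letters, and no binding was measured here.

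Levels of different genes were compared as normalised reads per kb of exon, with exon lengths from the GENCODE annotation of GRCm38. Over the 9 livers Hnf4a was highest, at 3800 ± 468 (SD, n = 9), followed by Cebpa at 3011 ± 719. Foxa3 (1028 ± 237), Nr1i2 (836 ± 107) and Nr1i3 (800 ± 225) formed a middle group. Prox1 (322 ± 88.7), Foxa2 (235 ± 107), Onecut1 (155 ± 106) and Foxa1 (78.7 ± 24.7) were lowest, beside a median of 84.2 over the 13697 tested genes with a length. The ranges over the 9 livers separated only Cebpa from Foxa3 and Nr1i3 from Prox1. All other neighbours in this order overlapped, and Hnf4a exceeded Cebpa in 7 of 9 livers. The order was the same in HP1a_KO and HP1ab_KO as over all livers, while WT placed Nr1i3 before Nr1i2, and HP1ag_KO placed Foxa2 (276 ± 169) before Prox1 (273 ± 85.7), pairs that overlapped. Within the forkhead family Foxa3 was highest per kb and Foxa1 lowest. For Nr1i3, 3304 of 4414 exon bases are shared with Tomm40l on the opposite strand, and for Onecut1 2171 of 4113 with Gm20649 on the same strand, so the levels per kb of these 2 members are uncertain.

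**Figure D1:**
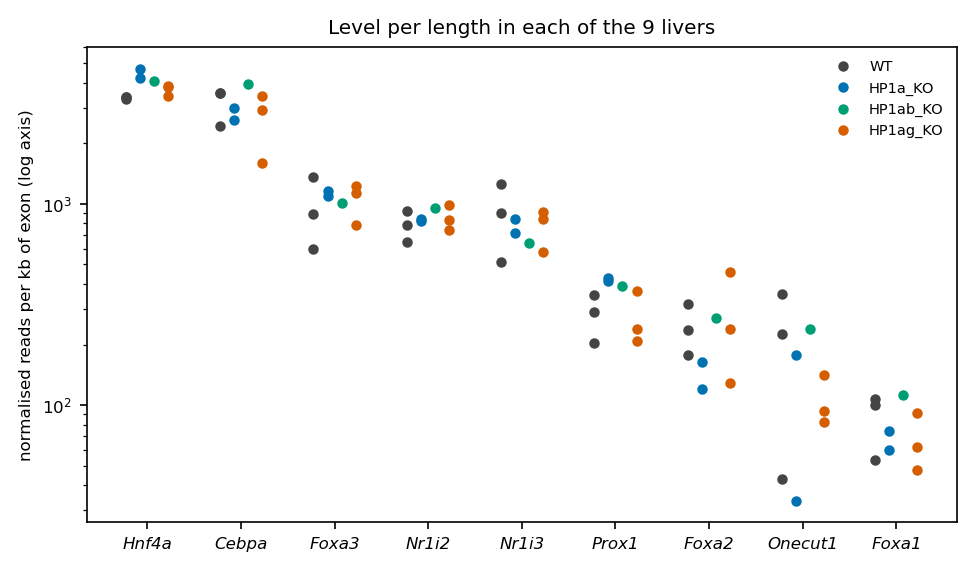
Normalised reads per kb of exon (log axis) of the 9 transcription factor genes, 1 point per liver, coloured by group and ordered by the mean over the 9 livers. Hnf4a and Cebpa lie above 1600 in every liver, and Onecut1 spans from 33.5 to 356.

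Hnf4a had the smallest p of the 9 genes. It lies on the plus strand of chromosome 2 (GRCm38, chr2:163506808-163572910) and encodes the receptor that maintains the adult hepatocyte programme. It read 16479, 16338 and 15970 normalised reads in the 3 WT livers, 20309 and 22712 in the 2 HP1a_KO livers, 19706 in the HP1ab_KO liver, and 18365, 18568 and 16661 in the 3 HP1ag_KO livers. All 6 livers lacking HP1α were above all 3 WT livers, and both HP1a_KO livers were above every other liver.
The HP1a_KO mean was 21510 ± 1700 (SD, n = 2) against 16262 ± 263 (n = 3) in WT, and the fitted level was 132% of that in WT. The log2 difference was 0.40 ± 0.11 (SE), with an adjusted p of 0.426 by limma and of 0.0383 by DESeq2 on the recovered read counts. Limma called 0 of the 13845 genes in this comparison (0% of genes, with 1404, or 10.1%, at an unadjusted p under 0.05), edgeR also 0, and DESeq2 89, or 0.643% of genes. Hnf4a was the 1 of 9 members that DESeq2 called, and the call rests on all 5 livers: without any 1 of them the adjusted p by DESeq2 was 0.103 to 0.774, with log2 differences of 0.32 to 0.48. Without the 3 livers low in Dbp the limma difference was 0.39 ± 0.13 (limma adjusted p = 0.536).
HP1ag_KO livers, at 17864 ± 1047 (n = 3), differed from WT by 0.13 ± 0.10 on the log2 scale (limma adjusted p = 0.774; 0.02 ± 0.15 without the 3 livers low in Dbp), and from HP1a_KO by -0.27 ± 0.11 (limma adjusted p = 0.284, DESeq2 adjusted p = 0.183). For the 6 livers lacking HP1α against WT, which share the WT livers with the comparisons above, the log2 difference was 0.25 ± 0.10 (limma adjusted p = 0.852, DESeq2 adjusted p = 0.445). Every library above every WT library is the pattern of 1.4% of tested genes in that comparison, and Hnf4a was the 1 member that showed it. The opposite pattern, below every WT library, is that of 1.74% of tested genes and of 0 members.

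Hnf4a was also the steadiest of the 9 genes. Its values over the 9 livers spanned 1.42-fold and had an SD of 0.17 on the log2 scale, the smallest of the 9 members, with 31.4% of tested genes lower. Of its variance on that scale 87.8% lay between the 4 groups, against a median of 41.6% over tested genes.

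An antisense transcript, Hnf4aos, overlaps the Hnf4a locus on the opposite strand and shares 0 exon bases with it. Hnf4aos read 158, 173 and 134 normalised reads in WT, 84.4 and 45.6 in HP1a_KO, 154 in HP1ab_KO, and 120, 203 and 148 in HP1ag_KO. The 2 HP1a_KO livers, where Hnf4a was highest, had the lowest Hnf4aos values.
For Hnf4aos in HP1a_KO against WT the log2 difference was -1.30 ± 0.31 (limma adjusted p = 0.397, DESeq2 adjusted p = 0.0398). For Hnf4aos in HP1ag_KO against HP1a_KO it was 1.29 ± 0.31 (limma adjusted p = 0.141, DESeq2 adjusted p = 0.0115). Without 1 liver the first DESeq2 call on Hnf4aos was lost in each of the 4 cases that gave an adjusted p (0.0638 to 0.774), with none given without WT replicate 3. The second was kept without HP1a_KO replicate 1 (0.0155) or HP1ag_KO replicate 1 (0.00598) and lost without HP1ag_KO replicate 2 (0.111) or replicate 3 (0.0532), with none given without HP1a_KO replicate 2. The library kit marks strand, but no source used here states whether counting used strand, so reads from Hnf4a introns and from Hnf4aos cannot be told apart.

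Summed markers of other cell types were above WT in the HP1a_KO and HP1ab_KO livers, where Hnf4a was highest, and overlapped WT in HP1ag_KO. All 8 Kupffer cell markers were higher in HP1a_KO than in WT, and their summed level was 11724 to 14171 normalised reads in WT, 17433 to 20316 in HP1a_KO, 19699 in HP1ab_KO and 12880 to 18649 in HP1ag_KO. The 8 stellate cell markers summed to 10690 to 15993 in WT, 16841 to 18116 in HP1a_KO, 17178 in HP1ab_KO and 14180 to 15669 in HP1ag_KO. No marker of these lists was at 0 in every library. HP1a_KO replicate 1 was also the library with the fewest reads. The part of these in the Hnf4a difference was not tested, and in whole liver a change in the number of cells of a type and in RNA per cell cannot be told apart.

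**Figure D2:**
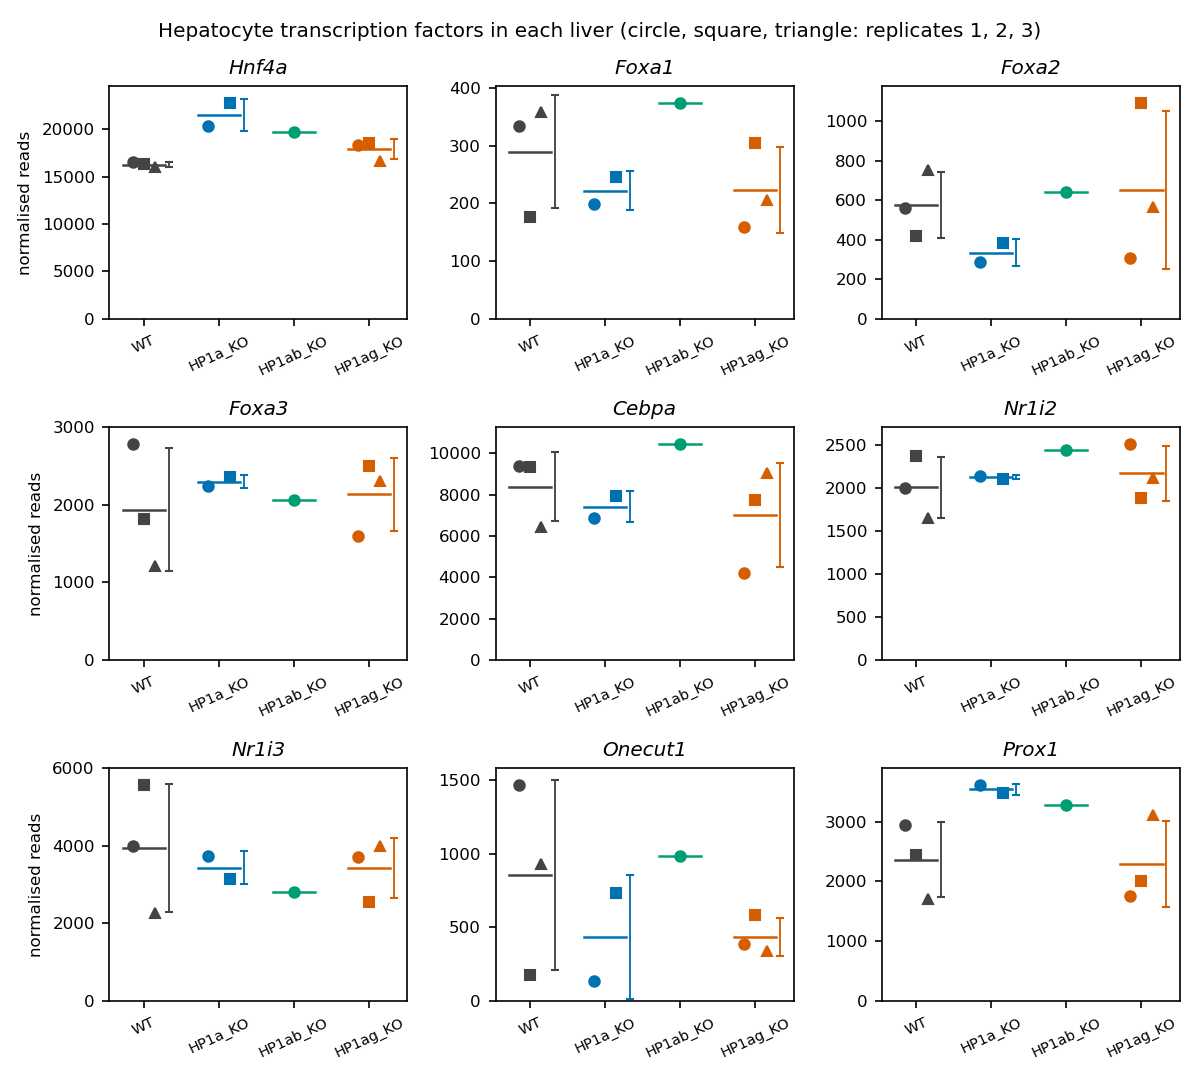
Normalised reads of the 9 transcription factor genes in each liver (vertical axes from 0), with 1 symbol per liver, the group mean as a horizontal line and the SD as a bar beside groups of 2 or 3. For Hnf4a the 3 WT livers lie between 15970 and 16479, below all 6 mutant livers, while for Onecut1 the WT livers alone span 176 to 1464.

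The 3 forkhead genes did not share a direction in HP1a_KO. FOXA proteins are known as pioneer factors that bind packed chromatin. Foxa1 (chr12:57540628-57546916, minus strand) read 334, 177 and 358 normalised reads in WT, 198 and 246 in HP1a_KO, 373 in HP1ab_KO and 159, 305 and 206 in HP1ag_KO. Foxa2 (chr2:148042877-148046969, minus strand) read 560, 420 and 754 in WT, 286 and 386 in HP1a_KO, 645 in HP1ab_KO and 306, 1091 and 564 in HP1ag_KO. Foxa3 (chr7:19013284-19023538, minus strand) read 2779, 1809 and 1211 in WT, 2237 and 2354 in HP1a_KO, 2054 in HP1ab_KO and 1599, 2492 and 2306 in HP1ag_KO. Both HP1a_KO livers were below every WT liver for Foxa2, and the groups overlapped for Foxa1 and Foxa3. In HP1a_KO against WT, 1 of 9 members lay wholly below WT, beside 15.1% of tested genes, and 2 lay wholly above it, beside 14.7%. For Foxa2 the log2 difference was -0.76 ± 0.48 (limma adjusted p = 0.601), with a 95% confidence interval from -1.85 to 0.34. Foxa1 differed by -0.32 ± 0.36 and Foxa3 by 0.33 ± 0.32 in that comparison. Leaving out 1 liver moved Foxa1 between -0.64 (without WT replicate 2) and -0.14 (without WT replicate 3), and Foxa3 between 0.033 (without WT replicate 3) and 0.63 (without WT replicate 1). The HP1ag_KO livers spanned the WT range for Foxa2, from 306 to 1091, and differed from WT by 0.03 ± 0.43.

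Cebpa (chr7:35119293-35121928, plus strand), which keeps hepatocytes in a metabolic, non-dividing state, read 9364, 9346 and 6443 normalised reads in WT, 6882 and 7945 in HP1a_KO, 10436 in HP1ab_KO and 4218, 7762 and 9048 in HP1ag_KO. The lowest liver, HP1ag_KO replicate 1, was at 4218 and the other 2 of its group lay inside the WT range. The log2 difference of HP1ag_KO from WT was -0.31 ± 0.28 (limma adjusted p = 0.820), and without that liver it was 0.02. For HP1a_KO it was -0.16 ± 0.31.

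The 2 xenobiotic receptors differed in how steady they were. Nr1i2 (chr16:38248323-38294824, minus strand; PXR) read 1999, 2367 and 1656 normalised reads in WT, 2141 and 2107 in HP1a_KO, 2436 in HP1ab_KO and 2508, 1885 and 2112 in HP1ag_KO. Nr1i3 (chr1:171213970-171220701, plus strand; CAR) read 3993, 5566 and 2264 in WT, 3736 and 3149 in HP1a_KO, 2811 in HP1ab_KO and 3709, 2544 and 4007 in HP1ag_KO. Nr1i2 spanned 1.51-fold over the 9 livers and Nr1i3 2.46-fold, with both extremes of Nr1i3 in WT. The Nr1i2 differences from WT were 0.10 ± 0.17 in HP1a_KO and 0.12 ± 0.15 in HP1ag_KO on the log2 scale, with 95% confidence intervals of -0.29 to 0.49 and -0.23 to 0.46. The Nr1i3 differences were -0.11 ± 0.35 and -0.14 ± 0.31, and -0.46 ± 0.19 and -0.23 ± 0.24 without the 3 livers low in Dbp. Tomm40l, which shares exon bases with Nr1i3, read 275 to 403 normalised reads over the 9 livers.

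Onecut1 varied most. It lies on the plus strand at chr9:74861921-74891781. It read 1464, 176 and 928 normalised reads in WT, 138 and 730 in HP1a_KO, 981 in HP1ab_KO, and 386, 581 and 339 in HP1ag_KO. Low and high livers occurred within WT and within HP1a_KO. The values spanned 10.6-fold, from 75 to 1646 reads before normalisation, and the SD on the log2 scale was 1.15, with 98.2% of tested genes lower. Of that variance 21.3% lay between groups. The log2 differences from WT were -0.97 ± 0.93 in HP1a_KO, 0.66 ± 1.18 in HP1ab_KO and -0.55 ± 0.83 in HP1ag_KO, each with a 95% confidence interval that included 0, and the HP1a_KO difference was 0.23 without HP1a_KO replicate 1.

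Prox1 (chr1:190118035-190170714, minus strand), also a marker of lymphatic vessels, read 2951, 2440 and 1707 normalised reads in WT, 3611 and 3480 in HP1a_KO, 3279 in HP1ab_KO and 1753, 2012 and 3109 in HP1ag_KO. The 2 HP1a_KO livers and the HP1ab_KO liver were above every other liver. The 3 lowest livers, WT replicate 3 and HP1ag_KO replicates 1 and 2, were the 3 low in Dbp. The log2 difference of HP1a_KO from WT was 0.62 ± 0.28 (limma adjusted p = 0.496, DESeq2 adjusted p = 0.502), and that of HP1ag_KO from HP1a_KO -0.67 ± 0.28 (limma adjusted p = 0.288). HP1ag_KO differed from WT by -0.05 ± 0.25. Without the 3 livers low in Dbp the first of these differences was 0.40 ± 0.13 (limma adjusted p = 0.538). With 1 HP1ag_KO liver left, the second shrank from -0.67 to -0.19 ± 0.16 and the third changed sign, to 0.21 ± 0.16. The 6 lymphatic endothelial markers summed to 5851 to 6017 normalised reads in WT, 6677 to 6988 in HP1a_KO, 6615 in HP1ab_KO and 5758 to 6081 in HP1ag_KO. That sum was highest in the same 3 livers as Prox1, but most of it was Reln, also on the stellate list, at 3855 to 4927. None of the 6 markers alone was highest in just those 3 livers, and Mmrn1 read 17.2 to 23.2 in them and 51.5 in WT replicate 3. The part of these markers and of the daily rhythm genes in the Prox1 values was not tested.

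Counts of members are given beside those of all tested genes. In HP1ag_KO against WT, 1 of 9 members (Hnf4a) lay wholly above WT, beside 6.46% of tested genes, and 0 lay wholly below it, beside 7.05%. In HP1ag_KO against HP1a_KO, 2 members (Hnf4a and Prox1) lay wholly below, beside 19.2% of tested genes, and 0 wholly above, beside 17.5%. The single HP1ab_KO liver was above all WT livers for 5 members (Hnf4a, Foxa1, Cebpa, Nr1i2 and Prox1), beside 22.6% of tested genes, and below all of them for 0, beside 24.8%. Limma and edgeR called 0 members and 0 genes in each of the 5 comparisons, and at an unadjusted p under 0.05 limma had 1 member (Hnf4a) in HP1a_KO against WT, 2 (Hnf4a and Prox1) in HP1ag_KO against HP1a_KO and 1 (Hnf4a) for all livers lacking HP1α against WT. DESeq2 called 0.715% of genes in HP1ag_KO against WT, 0.0795% in HP1ab_KO against WT, 3.32% in HP1ag_KO against HP1a_KO and 0.202% for all livers lacking HP1α, and no member in these 4. The background of the unadjusted limma test was 7.58% of genes in HP1ag_KO against WT (3.84% higher, 3.74% lower), 5.48% higher and 4.66% lower in HP1a_KO against WT, and 3.7% in HP1ab_KO against WT (2.05% higher, 1.65% lower). It was 16.2% in HP1ag_KO against HP1a_KO (7.8% higher, 8.38% lower) and 5.66% for all livers lacking HP1α (3.03% higher, 2.63% lower). Whether tested as different or not, 4 members were higher in HP1ag_KO and 4 in HP1a_KO than in WT, 8 in HP1ab_KO (49.4% of tested genes), 3 in HP1ag_KO than in HP1a_KO (48%) and 4 in all livers lacking HP1α.

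**Figure D3:**
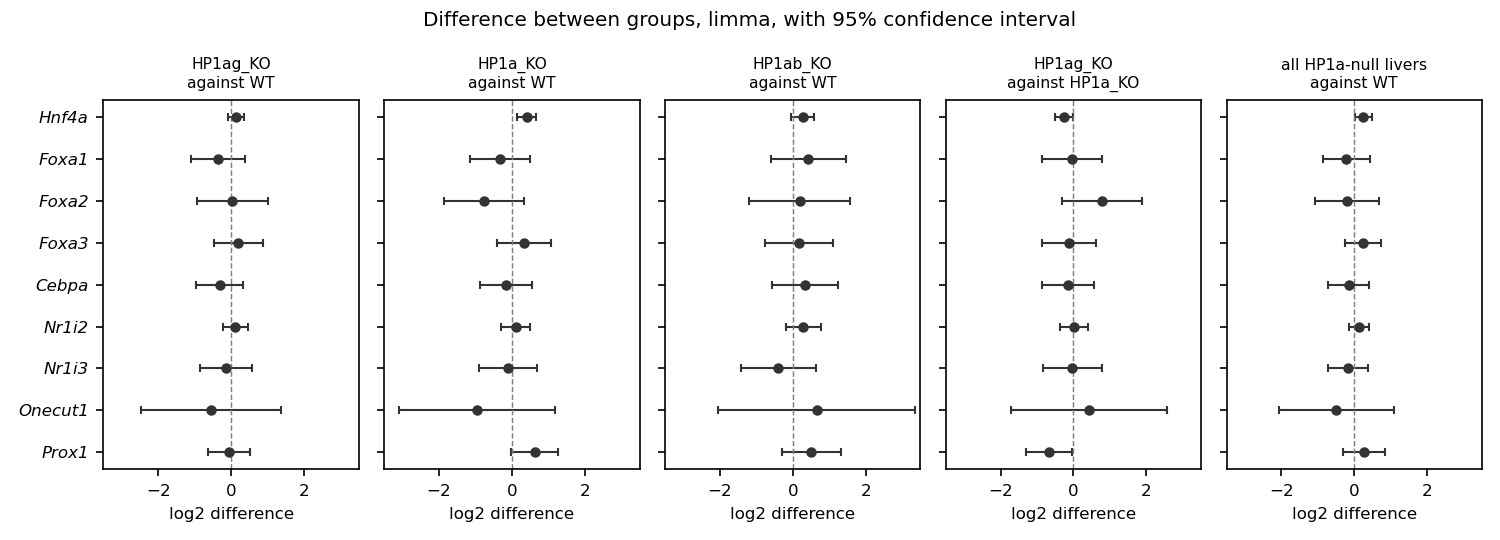
Log2 difference between groups for each of the 9 genes (horizontal axes), from limma, with 95% confidence intervals, in the 5 comparisons. In HP1a_KO against WT the interval of Hnf4a runs from 0.15 to 0.65 and that of Prox1 from -0.02 to 1.26, and Onecut1 has the widest intervals throughout.

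No relation across livers passed after adjustment, and that of Foxa1 with Onecut1 had the smallest p. On the log2 scale over the 9 livers, Foxa1 and Onecut1 had a Pearson r of 0.81 (exact permutation p = 0.00992, adjusted p = 0.416 over 42 relations) and a Spearman rho of 0.82 (exact permutation p = 0.0108, adjusted p = 0.452). Without the 2 livers farthest from the Foxa1 median r was 0.89. Foxa1 and Foxa2 had an r of 0.74 (exact permutation p = 0.0246, adjusted p = 0.436) and a rho of 0.72 (exact permutation p = 0.0369, adjusted p = 0.516), with r = 0.68 without the 2 farthest livers. Foxa1 and Nr1i3 ran opposite, with an r of -0.70 (exact permutation p = 0.0364, adjusted p = 0.436), a rho of -0.60 (exact permutation p = 0.0968, adjusted p = 0.642) and r = -0.75 without the 2 farthest livers. Foxa3 and Prox1 had an r of 0.67 (exact permutation p = 0.0416, adjusted p = 0.436) and a rho of 0.43 (exact permutation p = 0.25, adjusted p = 0.642), and that relation rests on 2 livers, since r was 0.00 without WT replicate 3 and HP1ag_KO replicate 1. Of the 42 relations computed, 36 between members and 6 between a factor and a target, these 4 had an unadjusted p under 0.05 for r, and 0 passed after adjustment. Foxa2 and Onecut1 had an r of 0.56 (exact permutation p = 0.121, adjusted p = 0.463) and a rho of 0.50 (exact permutation p = 0.178, adjusted p = 0.642), with r = 0.51 without the 2 farthest livers. Hnf4a and Prox1 had an r of 0.51 (exact permutation p = 0.158, adjusted p = 0.512) and a rho of 0.73 (exact permutation p = 0.0311, adjusted p = 0.516), with r = 0.18 without the 2 farthest livers. After group means were removed, r was 0.78 for Foxa1 with Onecut1, 0.88 for Foxa1 with Foxa2 and -0.82 for Foxa1 with Nr1i3, given as a description. Pairs not named above reached similar values, such as -0.91 for Foxa1 with Nr1i2, -0.88 for Foxa2 with Nr1i2 and 0.88 for Nr1i2 with Nr1i3.

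**Figure D4:**
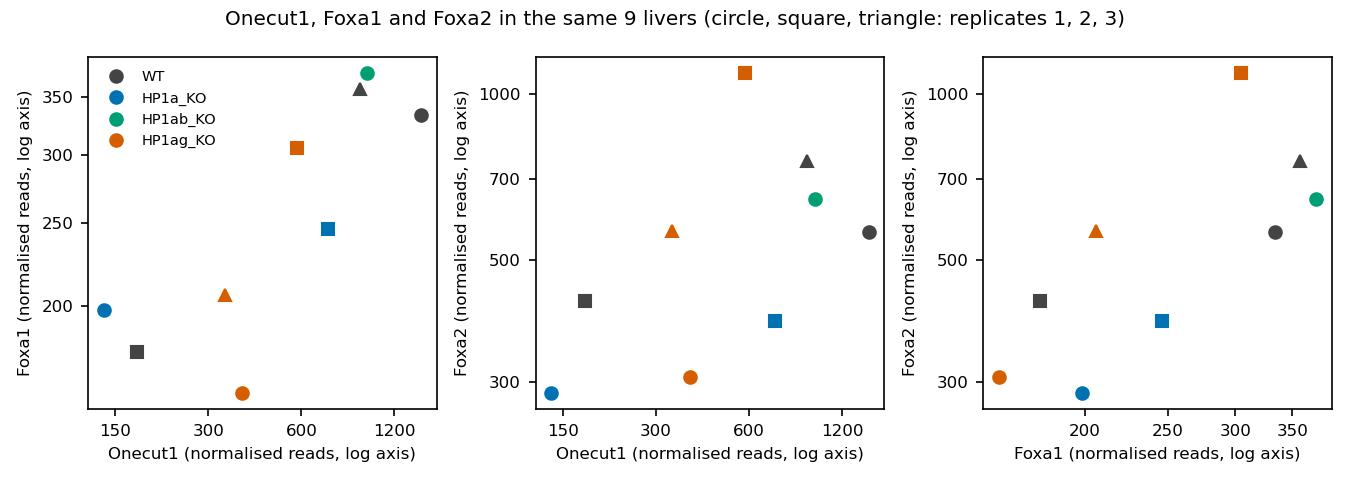
Normalised reads of Onecut1, Foxa1 and Foxa2 plotted against one another on log axes, 1 symbol per liver, coloured by group. Livers of 1 genotype are spread along the diagonals, with WT replicate 2 low and WT replicates 1 and 3 high for Onecut1 and Foxa1.

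The genes whose pattern over the 9 livers was nearest to Onecut1, by the root mean square difference of centred log2 values, were Ccr9, Arid5b and Hhex, at 0.70, 0.72 and 0.73. Hhex, a homeobox gene of early liver and bile duct, read 1733, 804 and 2534 normalised reads in WT, 804 and 950 in HP1a_KO, 1593 in HP1ab_KO and 760, 1559 and 857 in HP1ag_KO. As for Foxa1, WT replicate 2 was the lowest of its group and HP1ag_KO replicate 2 the highest of its own. Ccr9 read only 1.83 to 17.8 normalised reads. The 10 cholangiocyte markers, of which 8 were tested, summed to 780 to 1828 normalised reads in WT, 827 to 1089 in HP1a_KO, 1080 in HP1ab_KO and 1040 to 1428 in HP1ag_KO. Most of that sum was 1 gene, Spp1, at 553, 1533 and 947 in WT, while Krt19 and Krt7 read 12.5 to 35.6. The part of the cholangiocyte markers in the spread of Onecut1, Foxa1 and Foxa2 was not tested.

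Known targets of the factors were described from lists of genes, by how many were higher or lower, beside all 13845 tested genes, of which 49.7% were higher in HP1a_KO and 47.9% in HP1ag_KO than in WT. Of 35 HNF4A targets, 13 were higher and 22 lower in HP1a_KO (median log2 difference -0.08, against -0.00 for all tested genes), and 11 were higher and 24 lower in HP1ag_KO (median -0.07, against -0.01). Limma called 0 of them in both comparisons. DESeq2 called 3 higher in HP1a_KO: Hp, Hpx and Trf, which encode haptoglobin, hemopexin and transferrin, plasma proteins that bind haemoglobin, haem and iron. Hp read 89108, 75735 and 53973 normalised reads in WT, 271219 and 142893 in HP1a_KO, 157208 in HP1ab_KO and 91764, 54474 and 62758 in HP1ag_KO. Hp and Hpx are also acute phase genes, and Hp was highest in the 3 livers that also had the highest Prox1. For Hp the log2 difference of HP1a_KO from WT was 1.46 ± 0.35 (limma adjusted p = 0.397, DESeq2 adjusted p = 0.00336), and for Hpx 1.18 ± 0.27 (limma adjusted p = 0.397, DESeq2 adjusted p = 0.000317). Trf differed by 0.49 ± 0.18 (limma adjusted p = 0.457, DESeq2 adjusted p = 0.0158). Slco1b2, a hepatocyte uptake transporter, was lower in all 6 mutant livers (33593 to 46582 normalised reads) than in WT (49681 to 56492), with a log2 difference of -0.38 ± 0.12 (limma adjusted p = 0.806, DESeq2 adjusted p = 0.204).

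Of the 23 FOXA targets, 11 were higher in HP1a_KO and 9 in HP1ag_KO, with 1 called by DESeq2 (Trf, higher in HP1a_KO) and 0 by limma. Of the 25 C/EBPA targets, 13 were higher in HP1a_KO and 12 in HP1ag_KO, with 0 called by DESeq2 or limma, and 1 at an unadjusted p under 0.05 by limma in each. Fgf21, a fasting hormone, read 306 and 1060 normalised reads in HP1a_KO and 28.1 to 128 in WT, a log2 difference of 3.44 ± 0.98 (limma adjusted p = 0.432, DESeq2 adjusted p = 0.116).

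Among targets of the xenobiotic receptors DESeq2 called genes in both directions and limma none. Of 24 tested CAR targets, 18 were lower in HP1a_KO (median -0.32), 15 in HP1ag_KO (median -0.17) and 17 for all livers lacking HP1α (median -0.30), where 48.3% of tested genes were higher. Limma called 0 of them, with 7 lower and 1 higher at an unadjusted p under 0.05 in HP1a_KO. DESeq2 called 3 lower in HP1a_KO, the glutathione transferase genes Gsta2 and Gstm3 and the cytochrome P450 gene Cyp2a5, the last named after its values were seen. Gstm3 read 1107, 1048 and 978 normalised reads in WT, 424 and 719 in HP1a_KO, 911 in HP1ab_KO and 776, 585 and 621 in HP1ag_KO, with every mutant liver below every WT liver. DESeq2 called 2 higher in HP1ag_KO, Cyp2b9 and Meg3. Cyp2b9 read 10.7, 134 and 101 normalised reads in WT, 328 and 287 in HP1a_KO, 88.7 in HP1ab_KO and 6684, 340 and 808 in HP1ag_KO. Both HP1a_KO livers and all 3 HP1ag_KO livers were above every WT liver, and the highest, HP1ag_KO replicate 1, was the one that stood apart for Cyp2b13, Cux2 and H19. Meg3, an imprinted RNA, read 30.1, 132 and 121 in HP1ag_KO against 21.3, 19.05 and 16.9 in WT. Cyp2b10, the standard readout of CAR activity, read 30.2, 16.2 and 45.9 in WT, 31.2 and 37.0 in HP1a_KO, 23.2 in HP1ab_KO and 259, 51.6 and 38.8 in HP1ag_KO, and only HP1ag_KO replicate 1 and replicate 2 were above WT. Across livers Nr1i3 and Cyp2b10 had an r of -0.21 (exact permutation p = 0.575, adjusted p = 0.862) and a rho of -0.48 (exact permutation p = 0.194, adjusted p = 0.642), with r = 0.15 without the 2 livers farthest from the Nr1i3 median. Of 18 tested PXR targets, 11 were lower in HP1a_KO and 11 in HP1ag_KO, and DESeq2 called 1, Ugt1a9, lower in HP1ag_KO at 1712, 1227 and 1723 normalised reads against 2582, 2310 and 2967 in WT (log2 difference -0.76 ± 0.16, limma adjusted p = 0.394, DESeq2 adjusted p = 0.0143). Cyp3a11, the standard PXR target, read 116353 to 171565 in WT and 115090 to 160962 in the mutant livers. Nr1i2 and Cyp3a11 had an r of -0.34 (exact permutation p = 0.374, adjusted p = 0.776) and a rho of -0.15 (exact permutation p = 0.708, adjusted p = 0.850), and without WT replicate 3 and HP1ag_KO replicate 1 r was 0.65, so its sign rests on those livers. For Cebpa and Cps1, a urea cycle enzyme gene, r was 0.28 (exact permutation p = 0.435, adjusted p = 0.784) and rho 0.18 (exact permutation p = 0.644, adjusted p = 0.837), with r = 0.18 without the 2 farthest livers. Reads of near-identical Gst, Cyp2b and Ugt1a genes may be split between copies, so these values are uncertain.

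Of 18 targets of ONECUT1 and PROX1, 9 were higher in HP1a_KO and 8 in HP1ag_KO. Hnf4a itself is on this list and was the 1 that DESeq2 called, in HP1a_KO, while limma called 0 in both comparisons. Cyp7a1, the rate-limiting enzyme of bile acid synthesis and also on the HNF4A and FOXA lists, read 12470, 3578 and 3150 normalised reads in WT, 5209 and 3634 in HP1a_KO, 711 in HP1ab_KO and 1426, 4823 and 6456 in HP1ag_KO. It was lowest in the HP1ab_KO liver, and that difference from WT was -2.87 ± 0.93 on the log2 scale (limma adjusted p = 0.999, DESeq2 adjusted p = 0.525). The r of Cyp7a1 was -0.05 with Onecut1 (exact permutation p = 0.905, adjusted p = 0.951) and 0.18 with Prox1 (exact permutation p = 0.647, adjusted p = 0.899), with rho of -0.13 (exact permutation p = 0.744, adjusted p = 0.857) and 0.32 (exact permutation p = 0.410, adjusted p = 0.749). Without the 2 farthest livers r was 0.13 and -0.15. After group means were removed it was 0.24 with Onecut1 and 0.81 with Prox1, given as a description.

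Genes listed as those of the fetal liver that fall silent as hepatocytes mature were higher on balance. Some were not silent in WT, such as Aldoa at 2264 to 2580 normalised reads. All 17 that were tested, of 24 listed, had a positive log2 difference for all livers lacking HP1α (median 0.24), beside 48.3% of tested genes. Limma, edgeR and DESeq2 called 0 of them. By limma 4 were at an unadjusted p under 0.05, beside 5.66% of tested genes. In HP1a_KO 13 of 17 were higher (median 0.40), beside 49.7% of tested genes, and in HP1ag_KO 13 of 17 (median 0.37), beside 47.9%. Gpc3, an oncofetal surface proteoglycan, read 25.8, 22.9 and 24.3 normalised reads in WT, 60.5 and 37.9 in HP1a_KO, 27.97 in HP1ab_KO and 72.0, 54.96 and 60.6 in HP1ag_KO, and every mutant liver was above every WT liver. Its log2 difference in HP1ag_KO was 1.32 ± 0.24 (limma adjusted p = 0.291, DESeq2 adjusted p = 0.0163). Afp, also oncofetal, did not separate the groups. It read 36.5, 36.2 and 42.1 in WT, 18.3 and 43.9 in HP1a_KO, 43.1 in HP1ab_KO and 53.8, 39.3 and 66.2 in HP1ag_KO. Pkm, the fetal pyruvate kinase gene, read 548 to 897 in the mutant livers and 463 to 520 in WT, a log2 difference of 0.47 ± 0.16 (limma adjusted p = 0.806, DESeq2 adjusted p = 0.314). Kupffer markers were also higher in 8 of 8 for all livers lacking HP1α (median 0.35), and their part in these values was not tested.

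**Figure D5:**
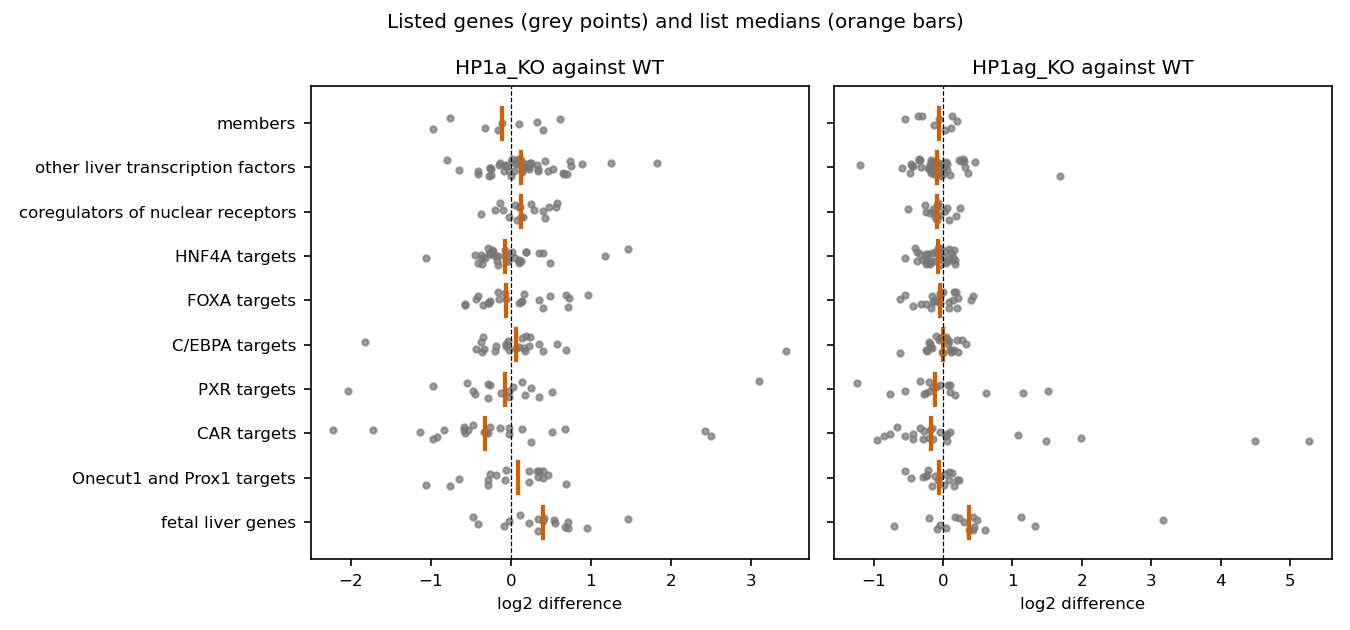
Log2 difference of each tested gene (grey points, horizontal axis) and list median (orange bars) for the 9 factors and their lists, in HP1a_KO and in HP1ag_KO against WT. The CAR targets have a median of -0.32 in HP1a_KO, with single genes far to the right in both panels, and the fetal liver genes have medians of 0.40 and 0.37.

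Of 49 tested other liver transcription factors, 33 were higher in HP1a_KO (median 0.13) and 14 in HP1ag_KO (median -0.09), and limma, edgeR and DESeq2 called 0 in either comparison, with 5 higher and 1 lower at an unadjusted p under 0.05 by limma in HP1a_KO. Atf5, a stress-response factor, read 2075, 3053 and 2249 normalised reads in WT, 4080 and 3816 in HP1a_KO, 2573 in HP1ab_KO and 2175, 2439 and 2053 in HP1ag_KO. The HP1a_KO difference of Atf5 was 0.70 ± 0.17 (limma adjusted p = 0.397, DESeq2 adjusted p = 0.0579). Tead1, a partner of the growth regulator YAP, read 201, 227 and 233 in WT, 407 and 335 in HP1a_KO, 389 in HP1ab_KO and 287, 203 and 221 in HP1ag_KO. The clock receptor gene Nr1d1 read 463, 755 and 166 in WT, 1101 and 1718 in HP1a_KO, 931 in HP1ab_KO and 508, 368 and 666 in HP1ag_KO. Nr1d1 was lowest of its group in the WT liver low in Dbp, and of the HP1ag_KO livers the 2 low in Dbp were lower than the other.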

How the data were processed

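Total RNA of mouse liver was sequenced as strand-marking libraries after ribosomal RNA removal, per the labels' protocols. The authors deposited a normalised signal for every gene in each library, and the steps between low values fit whole reads scaled by a single factor in each library. Per the submitters' processing notes, the tools were DESeq2 1.0.19, HTSeq 0.5.4p3, Bowtie2 2.1.0, TopHat2 2.0.10 and CASAVA 1.8.2, and the build was mm10. The authors' annotation and strand setting are not given in these sources. Whole reads were recovered from 100% of values (tolerance 0.1 read).

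The 9 genes, the gene lists and the tests were chosen with earlier results of these data known. Groups follow the genotype labels. The main test was limma 3.58.1 in R 4.3.3, with its trend option, on log2(value + 1), for 13845 genes whose mean reached 10, in 1 fit of 4 groups (5 residual degrees of freedom). Since HP1ab_KO has 1 library, its spread was taken from the other groups. All livers lacking HP1α were compared with WT in a fit of 2 groups. Adjustment was Benjamini-Hochberg over all tested genes, two-sided, with a threshold of 0.05. Differences on this scale understate those of low genes. EdgeR 4.0.16 (quasi-likelihood) and DESeq2 1.42.0 on recovered reads, other pseudocounts (0.5 and 5), filters and scalings, and leaving out each library were alternatives. The fits were tested on simulated data. Relations used exact two-sided permutation tests.

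Besides the 9 genes, those named were the deleted genes, 6 fixed factor-target pairs, from each list up to 4 genes with the smallest limma p against WT, genes overlapping a member on the opposite strand, and the 3 nearest to the most variable member. Some genes that this rule names are not reported here.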

Additional observations from a re-analysis of the deposited data

How the results depend on the processing

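No paired analysis was possible because the labels state no shared litter, batch or day and the replicate numbers follow accession order. For the 2 pairs of neighbouring mouse numbers across WT and HP1ag_KO, deviations from the group means correlated over genes at 0.17 and 0.25, the highest of the WT livers for both HP1ag_KO livers, a hint from the data only, and the other WT and HP1ag_KO livers, whose numbers are not neighbours, correlated at 0.19. A block for these 2 pairs, chosen after seeing the data, called 0 genes by limma in HP1ag_KO against WT. By its construction it leaves the differences as they were and changes their errors, with Cebpa at -0.31 ± 0.13 (limma adjusted p = 0.492) and Prox1 at -0.05 ± 0.16 (limma adjusted p = 0.928). Of the members' differences under settings other than leaving out a library, 482 kept their direction and side of the threshold, 1 passed it (Hnf4a in HP1a_KO, by DESeq2) and 12 reversed. The filters on low values, the fit without the trend and the fit of only the groups compared cannot change a difference. Under those settings the direction was fixed in advance, and only the side of the threshold could change. The reversed values were, for HP1ag_KO against HP1a_KO, Foxa1 at 0.059 (equal totals), 0.0088 (edgeR) and 0.012 (DESeq2), Nr1i3 at 0.064 (equal totals), 0.057 (array weights), 0.00084 (edgeR) and 0.0020 (DESeq2), Cebpa at 0.024 (array weights) and Onecut1 at -0.0099 (edgeR). With array weights Prox1 was at 0.15 in HP1ag_KO against WT, and Foxa1 at 0.041 and Onecut1 at 0.21 for all livers lacking HP1α. The cause was not tested, and none of these was called.

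Leaving out 1 library kept 221 member differences and reversed 31, none of them called by limma. Their ranges were, in HP1ag_KO against WT, Cebpa -0.53 to 0.021, Foxa2 -0.43 to 0.48, Foxa3 -0.10 to 0.50, Nr1i2 -0.014 to 0.24, Nr1i3 -0.49 to 0.16, Onecut1 -1.46 to 0.066 and Prox1 -0.30 to 0.12. In HP1a_KO against WT they were Nr1i2 -0.034 to 0.22, Nr1i3 -0.46 to 0.19 and Onecut1 -2.17 to 0.23, and for HP1ab_KO Foxa2 -0.011 to 0.41, Foxa3 -0.13 to 0.47 and Onecut1 -0.25 to 1.28. In HP1ag_KO against HP1a_KO they were Cebpa -0.37 to 0.18, Foxa1 -0.29 to 0.18, Foxa3 -0.26 to 0.063, Nr1i2 -0.090 to 0.12, Nr1i3 -0.16 to 0.17 and Onecut1 -0.78 to 1.62. For all livers lacking HP1α they were Cebpa -0.33 to 0.01, Foxa2 -0.44 to 0.0076, Foxa3 -0.059 to 0.54, Nr1i3 -0.52 to 0.13 and Onecut1 -1.39 to 0.13.

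Other members kept their sign when 1 library was left out, but values moved: in HP1a_KO against WT Cebpa -0.34 to -0.056, Foxa1 -0.64 to -0.14, Foxa2 -0.97 to -0.54, Foxa3 0.033 to 0.63 and Prox1 0.40 to 0.80, and in HP1ag_KO against HP1a_KO Foxa2 0.32 to 1.24 and Prox1 -0.92 to -0.50. Without the 3 livers low in Dbp, reversed values were Nr1i2 -0.042 and Prox1 0.21 in HP1ag_KO against WT, Nr1i2 -0.034 in HP1a_KO, Foxa3 -0.13 in HP1ab_KO, and Foxa3 0.0073, Cebpa 0.29, Nr1i2 -0.0080 and Nr1i3 0.22 in HP1ag_KO against HP1a_KO. For all livers lacking HP1α they were Foxa1 0.026 and Foxa3 -0.0048. Limma then called 0 genes in 4 comparisons and 1 for all livers lacking HP1α.

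Limma called 0 genes in each comparison with all livers. DESeq2 called 99 in HP1ag_KO against WT, 89 in HP1a_KO, 11 in HP1ab_KO, 459 in HP1ag_KO against HP1a_KO and 28 for all livers lacking HP1α. In HP1a_KO a pseudocount of 5 gave 1 and array weights 1, in HP1ab_KO no filter gave 54, in HP1ag_KO against HP1a_KO no trend gave 7 and array weights 26, and for all livers lacking HP1α no trend gave 1. Leaving out a library gave 0 to 2 genes in HP1ag_KO, 0 to 5 in HP1a_KO, 0 to 2 in HP1ab_KO, 0 to 5 in HP1ag_KO against HP1a_KO and 0 to 1 for all livers lacking HP1α. The relations past the threshold were 0, and 0 to 1 without 1 library, with 1 without HP1ab_KO replicate 1, alternatives chosen after seeing the data, as were the DESeq2 fits without 1 library. Of 65 differences of other named genes, Cela1, a pancreas marker, reversed without HP1a_KO replicate 1 (-0.57 to 0.021 in HP1a_KO). With 2 or 3 livers a group and 1 for HP1ab_KO, intervals are wide: for Onecut1 in HP1a_KO against WT the 95% confidence interval ran from -3.11 to 1.17.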

Other observations

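More of the coregulators that nuclear receptors recruit were higher than lower in HP1a_KO, with separated genes in both directions. Of 18 genes, 13 were higher in HP1a_KO than in WT (median log2 difference 0.12), beside 49.7% of tested genes, and 5 in HP1ag_KO (median -0.09), beside 47.9%. Limma, edgeR and DESeq2 called 0, with 3 higher at an unadjusted p under 0.05 by limma in HP1a_KO. In HP1a_KO 5 lay wholly above WT, beside 14.7% of tested genes, and 3 (Hdac3, Smarcb1 and Tle3) wholly below it, beside 15.1%. The acetyltransferase genes Crebbp and Ep300 read 2112 and 2346, and 1244 and 1314, normalised reads in the 2 HP1a_KO livers, against 1448 to 1851 and 689 to 1210 in WT. Arid1a, a subunit of the SWI/SNF remodeller, read 1156 and 1193 in HP1a_KO and 689 to 1075 in WT. Tle3, a corepressor, was lowest in the HP1ab_KO liver, at 291 against 389 to 501 in WT.

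Markers of other cell types gave these counts in HP1a_KO against WT: 7 of 10 hepatocyte, 5 of 8 cholangiocyte, 5 of 6 lymphatic endothelial, 5 of 7 sinusoidal endothelial, 8 of 8 Kupffer and 7 of 8 stellate markers were higher, and 0 of 1 tested pancreas and gut marker. Of all tested genes 49.7% were higher in that comparison. DESeq2 called Trf, Cd5l (macrophages) and Col1a1 (collagen) among them, beside 0.643% of tested genes, and limma called 0, with Col1a1 at 1391 and 1045 normalised reads against 296 to 569 in WT.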
